A study of Mus musculus with 9 samples.

Results

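Corticotropin-releasing hormone (Crh), its binding protein (Crhbp) and its receptors (Crhr1, Crhr2) were described in single neurons of the mouse central amygdala. The 4 genes were chosen by name, as the hormone, the secreted protein that binds it and the receptors it acts on, and are 4 of 22601 genes in the deposited count table. The cells came from the central amygdala of wild-type (WT) B6 mice, pooled over acute brain slices, in 9 samples of 1 group (samples 1 to 9), with no treatment named. The samples combine 3 animal numbers with 3 date fields. Samples 1, 4 and 7 carried animal number 1, samples 2, 5 and 8 number 2, and samples 3, 6 and 9 number 3. No label says whether a repeated number is the same animal. Errors and p-values therefore measure the spread between these 9 samples, which may be technical.

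Crh is a peptide made from a precursor, stored in dense-core granules and released by neurons. It is best known as the hypothalamic signal that starts the stress hormone cascade, and the central amygdala is a main site of Crh outside the hypothalamus. Crhr1 and Crhr2 are G protein-coupled receptors that raise cyclic AMP mainly through the stimulatory G protein. Crhbp is secreted, binds Crh and limits its access to the receptors. The urocortin ligands of the same receptors (Ucn, Ucn2, Ucn3) were not analysed here.

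The table held 829 cells, of which 810 carried a GABA marker (Gad1, Gad2 or Slc32a1) and neither vesicular glutamate transporter, and were taken as inhibitory neurons. A cell was called positive for a gene at 1 count or more per 10000 of its gene counts. The inhibitory cells had a median of 126576 gene counts, with sample medians from 96675 to 227570. Samples 1 to 9 held 82 to 95 inhibitory cells each. The other 19 cells held none positive for any of the 4 genes. Transcripts differ in length, so levels were compared between cells and not between the 4 genes.

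Crh was positive in 84 of 810 inhibitory cells (10.4%, 95% exact binomial interval 8.36 to 12.7%). Over samples the lowest share was 4.88%, the median 10.7% and the highest 16.8% (10.3% ± 3.74, SD, n = 9). Sample 7 was lowest and sample 1 highest. On the CPM scale (Crh counts relative to each sample's summed counts), Crh reached 48.2 at the lowest, 94.8 at the median and 222 at the highest. Single cells held up to 882 Crh counts, or 35.2 per 10000, and 65 of the 84 positive cells had at least 3 per 10000. A further 63 cells had a Crh count below the threshold, 57 of them with 1 to 4 counts. Just inside the threshold cells had 1.06, 1.08 and 1.16 per 10000, and just outside it 0.867, 0.663 and 0.483.

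Crhbp was positive in 28 cells (3.46%, interval 2.31 to 4.96%), and every sample had at least 1 such cell. Its share was 1.16% at the lowest, 3.33% at the median and 5.26% at the highest (3.44% ± 1.09, SD, n = 9). The summed level ran from 5.87 CPM through a median of 14.8 to 87.6 CPM. The highest value, that of sample 5, came from 1 cell with 1838 Crhbp counts, or 42.1 per 10000, in which 58.6% of all Crhbp counts lay. Without that cell sample 5 had 5.77 CPM, below the lowest of the other samples. The next highest Crhbp cell, in sample 4, had 8.76 per 10000.

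Crhr1 was positive in 9 cells (1.11%, interval 0.509 to 2.10%), and samples 2, 6 and 7 had none. Its sample shares had a median of 1.16% and a highest value of 2.15% (1.09% ± 0.926, SD, n = 9). No cell passed 2.23 per 10000, but 50 cells (6.17%) had at least 1 Crhr1 count, spread over all 9 samples. Crhr2 was positive in 3 cells, 2 of them in sample 3 and 1 in sample 4. In 6 samples Crhr2 had no count at all, so the receptor was described cell by cell and entered no test. Together 122 of the 810 cells (15.1%) were positive for at least 1 of the 4 genes.

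**Figure D1:**
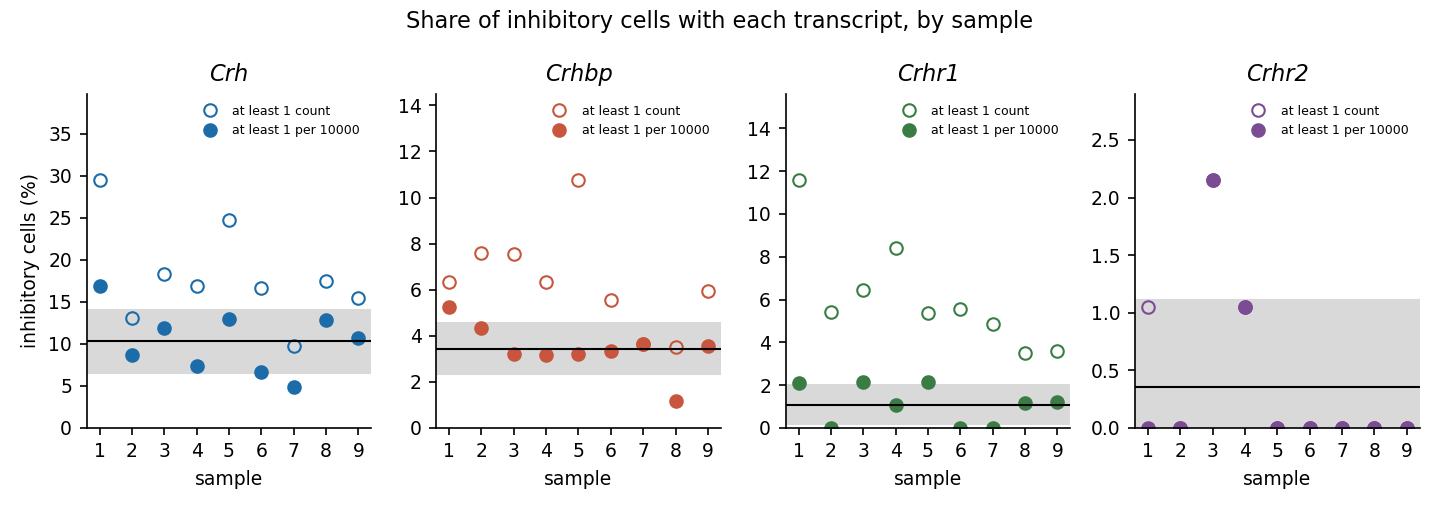
Percentage of inhibitory cells (vertical axis, a separate scale for each gene) with Crh, Crhbp, Crhr1 or Crhr2 in samples 1 to 9; filled points are cells at 1 count per 10000 or more, open points cells with at least 1 count, the line is the mean of the filled points and the grey band is 1 SD. Crh runs from 4.88 to 16.8%, and the filled Crhr2 points are at 0 in 7 of 9 samples.

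Cells positive for Sst (somatostatin) carried Crh more often than the others. Among Sst-positive cells the share with Crh had a lowest value of 14.3%, a median of 31.0% and a highest value of 66.7% over the 9 samples. Among Sst-negative cells it ran from 0 through 5% to 10.6%, so the ranges did not overlap and every sample was higher in the Sst-positive cells. In all, 48 of 148 Sst-positive cells (32.4%) were Crh-positive, against 36 of 662 (5.44%). On counts summed per sample and class, Crh was 422 ± 219 CPM in Sst-positive and 47.4 ± 39.8 CPM in Sst-negative cells (SD, n = 9). The fitted log2 fold change was 3.35 ± 0.56 (SE; edgeR adjusted p = 0.00361), and 4.53% of the 11355 genes tested passed in that comparison (2.26% higher and 2.26% lower). When any count, instead of 1 per 10000, made a cell Sst-positive, the change in Crh was as large (3.27) but did not pass (adjusted p = 0.347). Within each of the 3 animal numbers the Sst-positive share was 24.1 to 45.0% and the Sst-negative share 3.52 to 6.79%; within the date fields the values were 28.6 to 42.4% and 4.57 to 7.01%.

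Prkcd, protein kinase C delta, marks another large class of these neurons, and for Crh the split by Prkcd did not pass. Over samples the share with Crh was 2.70, 10.4 and 17.9% (lowest, median, highest) in Prkcd-positive cells and 4.65, 10.2 and 20.4% in Prkcd-negative cells. The ranges overlapped almost entirely. The fitted log2 difference in level was 0.15 ± 0.52 (edgeR adjusted p = 0.888; -1.48 and 0.0992 with classes set at 3 per 10000), where 17.3% of 11487 genes passed (7.60% higher, 9.74% lower). With cells positive for both markers set aside, Crh was lower in Prkcd than in Sst cells, at 40.9 ± 32.4 against 279 ± 229 CPM (log2 fold change -2.68 ± 0.72, edgeR adjusted p = 0.0317). Crh was lower in 7 of 9 samples, and 8.43% of 10398 genes passed (4.38% higher, 4.06% lower). The call was lost without any of samples 3, 4, 5, 8 and 9 (adjusted p 0.0632 to 0.0828) and with classes set by any count (-2.35, adjusted p = 0.197).

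Nr2f2, which encodes the transcription factor COUP-TFII, marked cells with almost no Crh. Only 1 of 116 Nr2f2-positive cells (0.862%, interval 0.0218 to 4.71%) was Crh-positive, in sample 4, against 83 of 694 (12.0%). The summed level was 0 CPM at the lowest, 0 at the median and 23.5 at the highest in Nr2f2-positive cells, and 59.6, 110 and 240 CPM in Nr2f2-negative cells. All 9 samples were lower in the Nr2f2-positive cells and the ranges did not overlap. In the fit Crh changed by -7.12 ± 0.82 in log2 (edgeR adjusted p = 8.46e-04), where 1.69% of 11008 genes passed (0.409% higher, 1.28% lower). Summed to 3 animal numbers or 3 date fields, Crh changed by -5.76 and -5.71 and did not pass (adjusted p 0.147 and 0.160), nor did it with classes set by any Nr2f2 count (-4.30, adjusted p = 0.0879). Nr2f2-positive cells were somewhat shallower, with a median of 110426 counts against 129046.

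Isl1-positive cells, marked by a LIM homeobox factor, showed a Crh difference that varied between samples. Their share with Crh was 0, 0 and 33.3% (lowest, median, highest), against 5.26, 10.3 and 15.4% in Isl1-negative cells. Pooled over samples, 9 of 76 Isl1-positive (11.8%) and 75 of 734 Isl1-negative cells (10.2%) were Crh-positive. The pooled levels were 92.6 and 110 CPM. Samples 1 and 2 held 7 of the 9 Crh-positive Isl1 cells, and 5 samples had none. The level changed by -2.82 ± 1.11 in log2 and did not pass by edgeR (adjusted p = 0.170; 4.85% of 11169 genes passed, 1.70% higher and 3.15% lower), while DESeq2 gave -4.58 and an adjusted p of 5.76e-04.

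Cells positive for both Prkcd and Sst, 23 in all, held 15 Crh-positive cells (65.2%), the highest share among classes that exclude each other; they were too few per sample to enter the ordering that follows. In Sst cells without Prkcd the share was 33 of 125 (26.4%). It was 16 of 225 (7.11%) in cells with none of the 4 markers, 19 of 320 (5.94%) in Prkcd cells without Sst, 1 of 55 (1.82%) in cells with Isl1 alone and 0 of 60 with Nr2f2 alone. That order was set by the mean sample shares themselves, so p-values of its steps are read as description and not as tests. Of the 4 steps between neighbours in that order, Sst cells without Prkcd lay above the unmarked cells in 9 of 9 samples (exact sign-flip permutation p = 0.00391, adjusted over the 4 steps 0.0156). The other steps did not pass, with adjusted exact permutation p of 0.0625 to 1. No doublet caller was run. The 15 Crh-positive cells with both Prkcd and Sst had a median of 167368 gene counts, against 120150 in Prkcd cells without Sst and 124190 in Sst cells without Prkcd, and whether some of them are 2 cells was not tested.

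**Figure D2:**
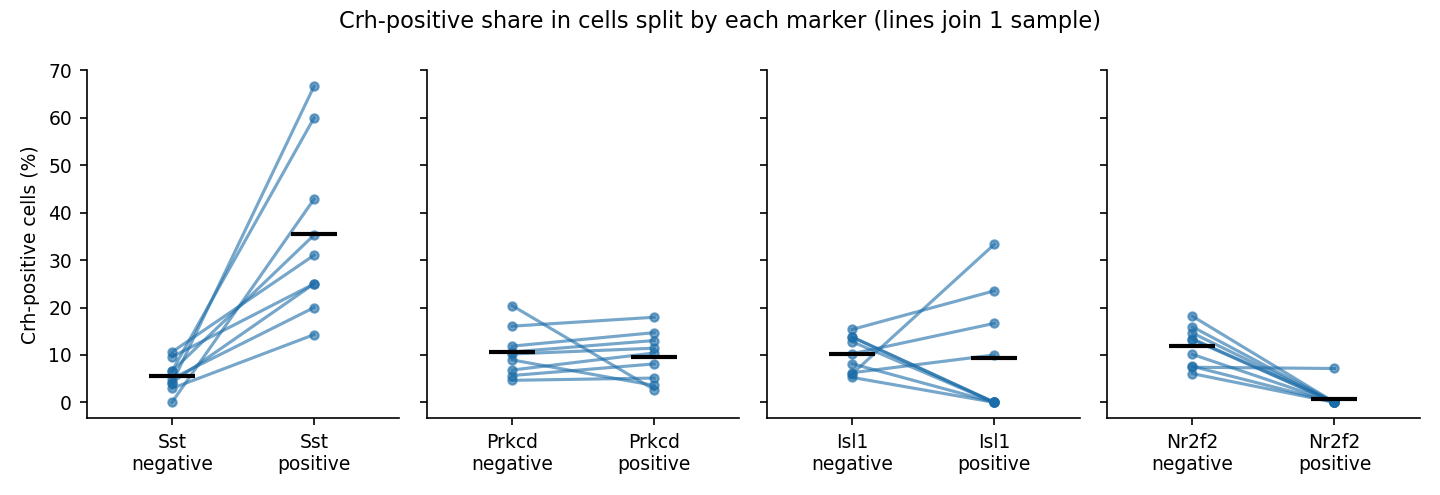
Percentage of cells positive for Crh (vertical axis) in cells negative and positive for Sst, Prkcd, Isl1 and Nr2f2; each line joins the values of 1 of the 9 samples and black bars are means. All 9 lines rise for Sst, all 9 fall for Nr2f2, and the Prkcd and Isl1 lines run both ways.

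Crh-positive cells fell into sets that differed in the other peptides they carried. Tac2 encodes the neurokinin B precursor and Nts the neurotensin precursor. Of 44 cells positive for Sst, Tac2 and Nts at once, 38 were Crh-positive (86.4%, interval 72.6 to 94.8%). With 2 of these 3 genes positive the share was 13 of 53 (24.5%), with 1 it was 10 of 135 (7.41%), and with none 23 of 578 (3.98%). The triple-positive cells came from 8 samples, and in each of these 8 most of them were Crh-positive, from 7 of 10 in sample 1 to all of them in samples 5, 7, 8 and 9. Sample 4 had 7 Crh-positive cells and no triple-positive one. The share was 15 of 17 where Prkcd was positive too and 23 of 27 where it was not.

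These 38 triple-positive cells, 45.2% of the Crh-positive cells, had a median Crh level of 11.5 per 10000 (1.06 to 35.2). Pdyn, the dynorphin precursor, was positive in 36 of the 38, and Cartpt, the precursor of CART peptide, in none. Among the 6 triple-positive cells without Crh, Pdyn was positive in 5 and Cartpt in 0, so neither set the Crh-positive ones apart. A second set of 13 Crh-positive cells had Prkcd and none of Sst, Tac2 and Nts. Their Crh was at a median of 3.20 per 10000, and no cell passed 7.41. All 13 were Cartpt-positive, from 8 samples, with a median of 16.1 Cartpt counts per 10000. Among the 289 cells of the same Prkcd kind without Crh, 61.2% were Cartpt-positive, with a median of 3.56 per 10000. Pdyn was positive in 1 of the 13.

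Another 10 Crh-positive cells had none of Prkcd, Sst, Tac2 and Nts, yet a median Crh level of 11.3 per 10000 (3.08 to 25.6). They came from samples 1, 4, 5 and 8 only. Penk, the enkephalin precursor, was positive in 9 of them with a median of 59.6 per 10000, against 79.7% and 14.7 per 10000 among the 266 such cells without Crh. The remaining 23 Crh-positive cells had 1 or 2 of Sst, Tac2 and Nts and a median Crh level of 5.92 per 10000. These sets were drawn after the values were seen and are described without a test.

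**Figure D3:**
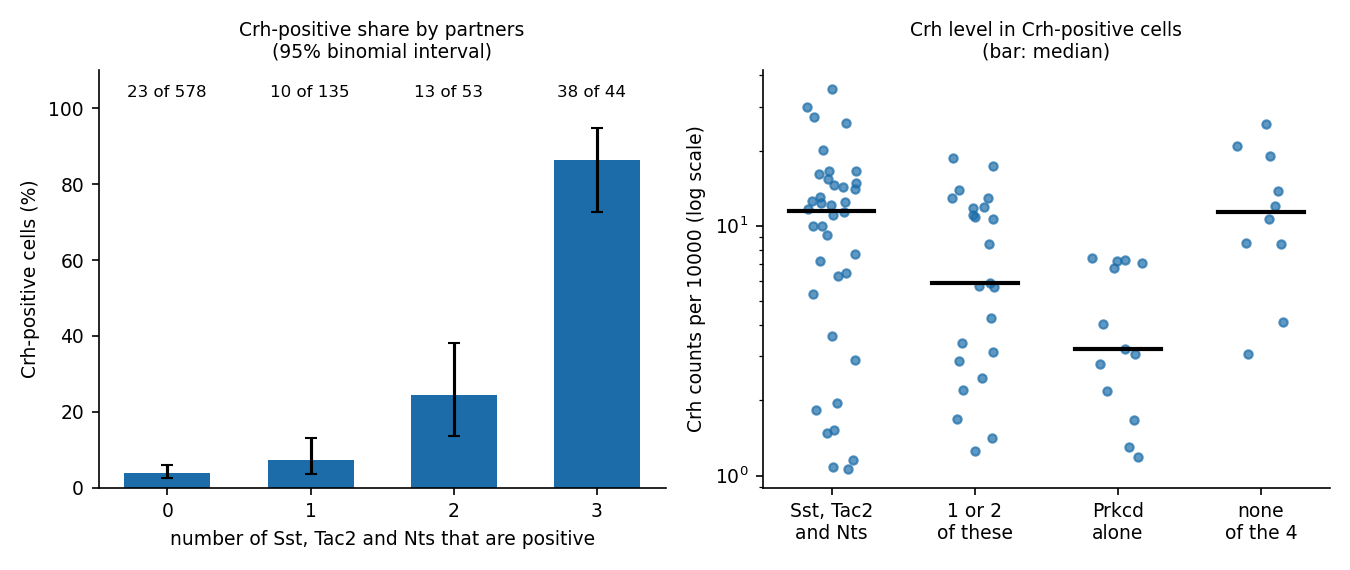
Left, percentage of inhibitory cells positive for Crh (vertical axis) by how many of Sst, Tac2 and Nts are positive (horizontal axis), with 95% exact binomial intervals and cell numbers. Right, Crh counts per 10000 on a log axis in the 84 Crh-positive cells by set, with bars at medians of 11.5, 5.92, 3.20 and 11.3.

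None of the 84 Crh-positive cells was positive for the binding protein (exact binomial interval 0 to 4.30%). Among Crh-negative cells 28 of 726 (3.86%) were Crhbp-positive, a share inside that interval. If the genes were independent, 2.95 cells would be positive for both. Any Crhbp count at all was found in 5 of 84 Crh-positive cells (5.95%) and 47 of 726 Crh-negative cells (6.47%), but those 5 cells held 22 counts in total. A count was thus seen about as often in both classes, and the difference seen was in level. Crh-positive cells were no shallower, with a median of 140038 gene counts against 125904.

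Summed per sample, with at least 5 cells in each class, 8 samples could be compared. Crhbp averaged 1.86 CPM in Crh-positive and 24.5 CPM in Crh-negative cells and was lower in 8 of 8 samples. Without sample 5, which holds the cell with 1838 counts, the Crh-negative mean was 13.6 CPM, and without sample 2 the Crh-positive mean was 0.0937 CPM. In the fit Crhbp changed by -6.32 ± 1.22 in log2 (edgeR adjusted p = 0.0184), and 2.59% of the 11137 genes passed (1.13% higher, 1.46% lower). The call was lost without sample 1, 5 or 9 (adjusted p 0.0562, 0.0605 and 0.0523), without Mbp-positive cells (0.165), without cells positive for both Prkcd and Sst (0.0798) and when samples were summed by animal number or by date field (0.123 and 0.275). The log2 change was -4.67 or lower in each of these. Without the sample block Crhbp changed by -3.66 (adjusted p = 0.0738), and with any Crh count making a cell positive by -1.87 (adjusted p = 0.497).

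Seen from the other side, the 28 Crhbp-positive cells held 5 Crh counts in all, 1 in each of 5 cells. Of the 28 cells 0 were Crh-positive (exact binomial interval 0 to 12.3%). Among Crhbp-negative cells 84 of 782 (10.7%) were, a share inside that interval. Any Crh count was found in 17.9% of Crhbp-positive and 18.2% of Crhbp-negative cells. In 8 samples with at least 3 Crhbp-positive cells, Crh averaged 1.29 CPM against 107 CPM in Crhbp-negative cells and was lower in 8 of 8. Most Crhbp-negative cells had no Crh either, so the few Crhbp-positive cells of a sample can hold almost none without any relation between the genes. The fit that follows does not settle this. In the fit Crh changed by -6.52 ± 0.85 in log2 (edgeR adjusted p = 0.00130; 3.84% of 10646 genes passed, 0.0282% higher and 3.81% lower), and it passed without each of the 8 samples in turn. The call was lost when any count made a cell Crhbp-positive (-4.63, adjusted p = 0.0893). Both fits compare few cells with many, and the median log2 change of all genes was -0.28 in the Crh and -0.998 in the Crhbp comparison, so lower calls there stand against a shifted background.

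The receptors were rare in Crh cells, and no difference from other cells passed at this depth. Crhr1 was positive in 1 of 84 Crh-positive cells (1.19%, interval 0.0301 to 6.46%) and in 8 of 726 others (1.10%). That cell, in sample 1, had 36 Crh and 22 Crhr1 counts and was Sst- and Nts-positive. With any count the numbers were 3 of 84 (3.57%) and 47 of 726 (6.47%), and by sample this share was lower in Crh-positive cells in 7 of 9 samples (mean 3.67 against 6.44%). Crhr1 summed to 5.84 against 5.07 CPM, with 3 samples higher and 5 lower in Crh-positive cells, and did not pass (log2 -2.09 ± 1.55, edgeR adjusted p = 0.555). Crhr2 was positive in 0 of 84 (interval 0 to 4.30%) and in 3 of 726 others.

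Pairs of the 4 genes shared few cells. Of the 6 pairs, only Crh with Crhr1 and Crhbp with Crhr2 had a cell positive for both, 1 cell each. No pair passed an exact sign-flip permutation test of within-sample odds ratios (adjusted p 0.0938 to 0.5), and with no shared cells those ratios are set by the 0.5 added to each entry, so no direction is read from them. Among Sst-positive cells, 48 with Crh held 3 Crhbp counts and 100 without held 1975, most of them in the single high cell of sample 5.

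**Figure D4:**
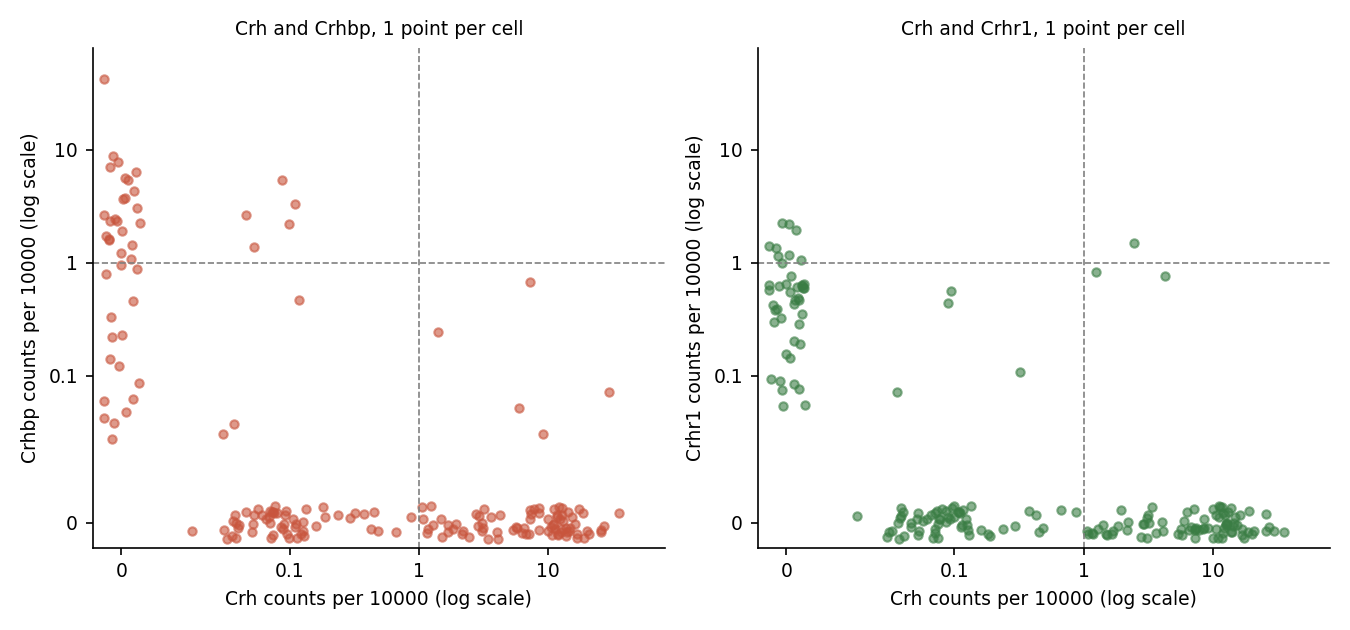
Crh counts per 10000 (horizontal) against Crhbp (left) or Crhr1 (right) counts per 10000, both on log axes with cells at 0 drawn at the marked 0 with random scatter; each point is an inhibitory cell with a count of either gene and dashed lines mark 1 per 10000. The upper right field, positive for both, holds 0 cells for Crhbp and 1 for Crhr1.

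Crhbp-positive cells were spread over the marker classes. Of the 28 cells 13 were Prkcd-positive, 6 Nr2f2-positive, 4 Sst-positive and 2 Isl1-positive. The share with Crhbp was 13 of 343 (3.79%) in Prkcd-positive and 15 of 467 (3.21%) in Prkcd-negative cells, and 4 of 148 (2.70%) in Sst-positive and 24 of 662 (3.63%) in Sst-negative cells. It was 2 of 76 (2.63%) against 26 of 734 (3.54%) by Isl1 and 6 of 116 (5.17%) against 22 of 694 (3.17%) by Nr2f2. None of these splits passed for the level by edgeR (adjusted p 0.929, 0.744, 0.110 and 0.811), nor did Prkcd against Sst cells (0.935); by DESeq2 Crhbp was lower in Isl1-positive cells (log2 -4.11, adjusted p = 2.30e-04). The Crhbp sum was 93.0 CPM in Sst-positive and 12.3 CPM in Sst-negative cells, with 4 samples higher and 5 lower, because the cell with 1838 counts was Sst-positive.

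Crhbp-positive cells were compared with Crhbp-negative cells for the other peptides. Cartpt was positive in 14 of 28 (50%) against 30.3% of Crhbp-negative cells, and it was higher in 8 of 8 samples (1953 against 517 CPM; log2 1.64 ± 0.27, edgeR adjusted p = 0.0163; 0.0509 without sample 2). Npy, the neuropeptide Y precursor, was positive in 5 of 28 against 7 of 782 cells, and these 5 included the 42.1 per 10000 cell. Npy averaged 5163 against 10.2 CPM, but was higher in only 5 of 8 samples (log2 6.12 ± 1.59, edgeR adjusted p = 0.0415). Npy passed in 2 of the 8 fits that left out a sample, with an adjusted p of up to 0.0990 without sample 7. Crhbp, Cartpt and Npy were the 3 genes of 10646 that passed as higher by edgeR. Lhx6, a marker of interneurons from the medial ganglionic eminence, was positive in 3 of 28 against 3 of 782.

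Several peptides were low in the Crhbp-positive cells. Tac2 was positive in 0 of 28 and fell from 422 to 2.18 CPM (log2 -7.72 ± 0.52, edgeR adjusted p = 1.14e-07). Pdyn was positive in 1 of 28 and lower in 7 of 8 samples (log2 -6.56 ± 1.01, edgeR adjusted p = 0.00794; 0.0509 without sample 2), although its mean over samples was 271 against 343 CPM. Cck, cholecystokinin, fell from 58.2 to 5.71 CPM (log2 -6.21 ± 1.53, edgeR adjusted p = 0.0320; 0.0830 without sample 5). Cadps2, a granule priming factor, had no count in the Crhbp-positive cells, at least 59.7-fold lower with a floor of 3 counts over the class. Other genes lower in 8 of 8 samples were Trpc5, Naa30, Dclk3, 0610030E20Rik and 1700040I03Rik, each with 1 to 3 counts in the Crhbp-positive cells and a ratio of summed counts of 0.00732 to 0.0183, and Lrriq1. Each of these 6 genes and Cadps2 passed in 6 of the 8 fits that left out a sample (adjusted p 0.0509 without sample 9). By edgeR the count of lower genes, 406, fell to 3 without sample 2, 5 without sample 9, 239 without sample 6 and 254 without sample 5. With equal cell numbers in both classes 0 genes passed as lower by edgeR (70 at an unadjusted p under 0.05) and 1 as higher.

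Among the fixed lists in the Crhbp comparison, 2 of 11 other neuropeptide precursors rose and 4 fell (median log2 -2.98; all genes -0.998), where 0.0282% of all 10646 genes rose and 3.81% fell. Of 12 genes for precursor processing and granules 1 fell, with a median of -0.28. Of 30 genes for G proteins, cyclases and kinases after the receptors 0 passed by edgeR (6 at an unadjusted p under 0.05, 3 by DESeq2; median -0.55). Of 9 factors known to act on the Crh gene 0 passed by edgeR (1 at an unadjusted p under 0.05, 1 by DESeq2; median -1.03).

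Crhr1 showed a pattern by Isl1 and Prkcd. In Isl1-positive cells Crhr1 was 0.499 CPM at the lowest, 27.3 at the median and 38.6 at the highest, and in Isl1-negative cells 0.983, 2.42 and 5.34 CPM. It was higher in 8 of 9 samples, sample 6 being the exception. The log2 change of 2.47 ± 0.75 missed the threshold (edgeR adjusted p = 0.0757). It passed without sample 6 (0.0464), without the sample block (2.91, 0.00800), with classes set by any Isl1 count (2.42, 0.0356) and by DESeq2 (2.55, 4.36e-04). That was the only 1 of the 9 fits leaving out a sample to pass, namely without sample 6. The edgeR adjusted p was up to 0.164, without sample 3. Cells with at least 1 Crhr1 count made up 20 of 76 Isl1-positive (26.3%) and 30 of 734 Isl1-negative cells (4.09%). By sample these shares were 10, 33.3 and 42.9% (lowest, median, highest) against 1.25, 3.61 and 8.97%, higher in 9 of 9 samples with no overlap. Positive cells were 5 of 76 (6.58%) against 4 of 734 (0.545%).

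Isl1-positive cells were deeper, with a median of 169576 gene counts against 123695. Thinned to 50000 counts per cell, with 3 and 19 shallower cells left out, 23.3% of Isl1-positive and 3.64% of Isl1-negative cells still had a Crhr1 count. Within the 3 animal numbers the positive share was 4.76 to 8.70% against 0.410 to 0.800%.

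In Prkcd-positive cells Crhr1 was low. Its level was 0, 0 and 9.43 CPM (lowest, median and highest) against 1.79, 5.56 and 13.2 CPM in Prkcd-negative cells, lower in 8 of 9 samples. The fitted log2 fold change was -4.51 ± 1.13 (edgeR adjusted p = 0.0130), and it passed without each sample in turn. Without the sample block Crhr1 changed by -2.21 (adjusted p = 0.120), and with classes set by any Prkcd count by -1.84 (adjusted p = 0.199). A Crhr1 count was found in 4 of 343 Prkcd-positive cells (1.17%) and 46 of 467 Prkcd-negative cells (9.85%), lower in 9 of 9 samples.

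Split by both markers, a Crhr1 count was seen in 18 of 64 cells with Isl1 and no Prkcd (28.1%), 2 of 12 with both (16.7%), 28 of 403 with neither (6.95%) and 2 of 331 with Prkcd and no Isl1 (0.604%). The summed levels in that order were 20.4, 21.8, 4.86 and 0.0691 CPM. The 21.8 CPM rests on the 2 cells with a count, which had 54 (sample 3) and 14 (sample 1). By Sst and Nr2f2, Crhr1 did not differ beyond its spread (log2 -0.74 ± 1.17 and -1.49 ± 1.29, edgeR adjusted p = 0.811 and 0.652).

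**Figure D5:**
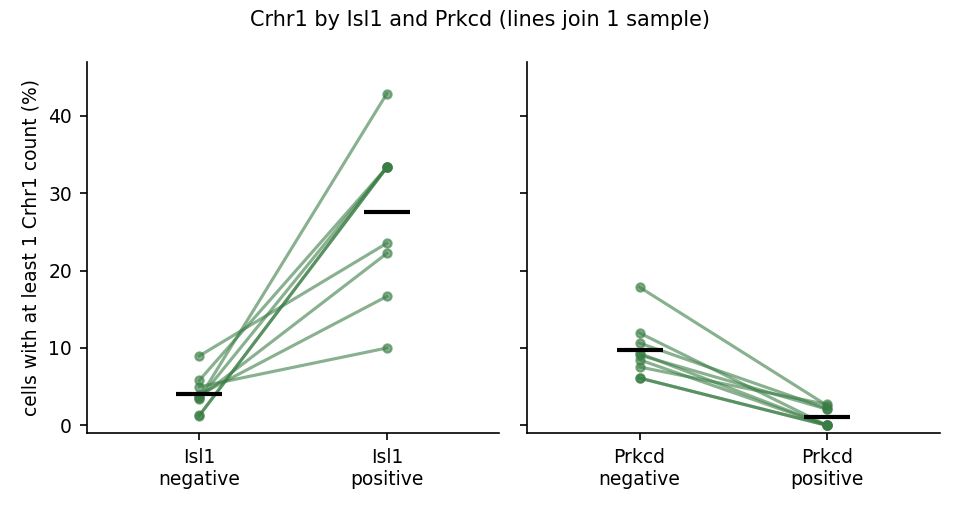
Percentage of cells with at least 1 Crhr1 count (vertical axis) in cells negative and positive for Isl1 (left) and Prkcd (right); lines join the values of 1 of the 9 samples and black bars are means. All 9 lines rise for Isl1, from a mean of 4.09 to 27.6%, and all 9 fall for Prkcd, from 9.68 to 1.06%.

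The 9 Crhr1-positive cells had 12 to 60 counts. The highest, in sample 3, had 2.23 per 10000 and was positive for Prkcd, Isl1 and Nts. Of the 9, 5 were Isl1-positive, 4 Nts-positive and 2 Sst-positive. The 3 Crhr2-positive cells had 25, 14 and 13 counts. Crhr2 was highest in a cell of sample 4 at 2.04 per 10000 that was also positive for Crhbp (53 counts), Lhx6 and Calb2, while both cells of sample 3 were positive for Prkcd and Penk. The last cell with Crhr2, in sample 1, had 14 counts and lay below the threshold at 0.933 per 10000.

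The genes around Crh were described in the same fit of Crh-positive against Crh-negative cells, where 126 of 11137 genes, Crh included, passed as higher and 163 as lower. Of 10 other neuropeptide precursors tested, 5 were higher and 2 lower (median log2 0.54; all genes -0.28). Nts rose from 85.4 to 1886 CPM (log2 4.27 ± 0.42, edgeR adjusted p = 3.69e-04), higher in 8 of 8 samples. Tac2 rose by 4.23 ± 0.87 in log2 (adjusted p = 0.0257; 0.0791 without sample 3), in 7 of 8 samples, and Pdyn by 2.54 ± 0.47 (adjusted p = 0.0153) in 8 of 8. Penk fell by 1.40 (adjusted p = 0.0282; 0.0843 without sample 9). Npy fell from 247 to 2.68 CPM (edgeR adjusted p = 5.49e-04), lower in 6 of 8 samples. It was positive in 0 of the 84 cells (interval 0 to 4.30%) and in 12 of 726 others (1.65%), a share inside that interval. Any Npy count was seen in 20.2% of Crh-positive and 16.9% of Crh-negative cells. Tac2 passed in 2 and Penk in 3 of the 8 fits that left out a sample.

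Besides Nts and Pdyn, the largest rises seen in every sample were Gm9725, Car8, Spink8, Tmem90a, Sst and Ecm1. Spink8, a Kazal-type protease inhibitor, went from 67.0 to 548 CPM (log2 2.97 ± 0.26, edgeR adjusted p = 1.18e-04). It passed in all 14 settings other than the fits that left out a named sample. Among those 14, leaving out Mbp-positive cells kept 6 samples, and leaving out cells positive for both Prkcd and Sst kept 7. Car8, a carbonic anhydrase-related protein, rose by 3.18 ± 0.51 (adjusted p = 0.00655). Sst rose by 2.41 ± 0.49 (adjusted p = 0.0248; 0.0677 without sample 3). Ecm1 passed in 4 of the 8 fits that left out a sample (up to 0.0758 without sample 6), and Tmem90a (adjusted p = 0.0483) in 0 of 8 (up to 0.119 without sample 9).

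Besides Crhbp, the largest falls seen in every sample were Gucy1a3, Grhl1, Nr2f2, Pgam2, Tmem215, Nos1 and Upk1b. Gucy1a3, a subunit of the nitric oxide receptor guanylate cyclase, had 4 counts in the Crh-positive cells and fell from 34.7 to 0.254 CPM (adjusted p = 6.60e-04). Nos1, neuronal nitric oxide synthase, fell from 26.2 to 0.481 CPM (adjusted p = 0.0138). Nr2f2 fell from 51.0 to 2.63 CPM (log2 -6.62 ± 0.98, edgeR adjusted p = 0.00360).

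Genes of peptide processing and receptor signalling were read against the 1.13% of all 11137 genes that rose and the 1.46% that fell. Of 12 genes for precursor processing and granules 2 rose and 1 fell (median log2 -0.24). Chga, the granule protein chromogranin A, rose from 459 to 891 CPM (log2 0.95 ± 0.13, edgeR adjusted p = 0.00177) and Scg5, a partner of a prohormone convertase, by 0.35 ± 0.08 (adjusted p = 0.0429; up to 0.114 without sample 8, and passing in 0 of 8 fits that left out a sample). Pcsk1n, an inhibitor of the other convertase, fell by 0.36 (adjusted p = 0.00878). Of 30 genes for G proteins, cyclases and kinases 2 rose and 2 fell (median log2 -0.19). Gnai1, an inhibitory G protein subunit, rose by 1.23 ± 0.12 (adjusted p = 4.29e-04) and Gnas, the stimulatory subunit, by 0.77 ± 0.14 (adjusted p = 0.0134). Rapgef4, a cyclic AMP sensor, fell by 1.92 (adjusted p = 0.0162; 0.0540 without sample 1) and Adrbk2, a receptor kinase, by 4.37 (adjusted p = 0.0314; 0.0843 without sample 1). Of 9 factors known to act on the Crh gene 0 passed by edgeR (2 at an unadjusted p under 0.05, 0 by DESeq2; median log2 -0.05). Leaving out 1 sample moved the 126 higher genes to 65 to 131 and the 163 lower genes to 47 to 116. Both were lowest without sample 1, and the lower count moved by over 1.5 times without sample 1, 2, 3, 5, 6, 8 or 9.

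Within Sst-positive cells, where 5 samples had at least 5 cells with and without Crh, 18 of 8627 genes passed, Crh included (0.209%; 0.162% higher, 0.0464% lower). Tac2 (log2 3.20 ± 0.35, edgeR adjusted p = 0.00527), Nts (3.68 ± 0.54, 0.0287), Chga (1.79 ± 0.24, 0.0180) and Scg2 (1.26 ± 0.20, 0.0398) were higher in those with Crh. Tac1, the substance P precursor, was lower, at 1.77 against 464 CPM (adjusted p = 0.00527). Crhbp, Crhr1 and Crhr2 did not pass the filter on low counts there.

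Markers of other cells were read beside these results. Mbp, a myelin gene, was positive in 31 of 84 Crh-positive cells (36.9%) and 24.7% of the others, but the summed oligodendrocyte list was 59.8 to 177 CPM in Crh-positive and 89.8 to 3003 CPM in Crh-negative cells by sample. The list of 5 intercalated cell markers, which includes Penk, was lower in Crh-positive cells in 8 of 8 samples, at 266 to 2174 against 1802 to 2487 CPM. Of its 5 tested members edgeR called only Penk lower, and 4 did not pass. The summed list of 5 striatal projection neuron markers was higher in 8 of 8. Of its 5 tested members edgeR called only Ppp1r1b higher, and the median log2 change was -1.52. The summed list of 7 cortical interneuron markers, which includes Sst and Npy, was higher in 8 of 8. Of its 5 tested members, however, edgeR called Sst higher and both Npy and Reln lower. Their median log2 change was -2.65 (all genes -0.28). In the Crhbp-positive cells this summed list ran from 0 to 36918 CPM against 395 to 984 CPM. Microglial markers C1qa, C1qb and Csf1r and endothelial markers Cldn5, Flt1 and Pecam1 had no count in either the Crh- or the Crhbp-positive cells. The other listed microglial marker, Cx3cr1, had no count in Crhbp-positive cells but was counted in Crh-positive cells, at up to 0.446 CPM by sample. The part of these markers in the results was not tested, other than by leaving out Mbp-positive or Npy-positive cells.

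By a correlation of log2(counts per 10000 + 1) across cells, computed within each of 9 samples and averaged, the genes most like Crh were Nts (mean r = 0.59), Tac2 (0.58), Vipr2 (0.53), Expi (0.51) and Spink8 (0.49), of 9898 genes ranked. Vipr2, a receptor for VIP, was positive in 17 of the 38 triple-positive Crh cells and 2.84% of all cells. Among the 6 triple-positive cells without Crh it was positive in 2. For Crhbp the 5 highest values were 0.17 to 0.21 (Tcf4, Chrm2, Kcnv1, Wdr90, Casz1) and for Crhr1 0.22 to 0.25 (Cntn2, Cib2, Chst15, Fxyd6, Efhd2), which in counts this sparse is no finding. Cells of a sample share their library and depth, so no p is given. Crh with Crhbp had a mean r of -0.05 and Crh with Crhr1 -0.04.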

How the data were processed

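The deposited values were raw counts for each gene and cell (829 cells), and a second table gave each cell's animal number and date field. Per the submitters' processing notes, NCBIM37 was the build and Seurat was among the tools. Aligner, strand and any molecular identifiers were not given in the sources used here. Intervals therefore cover counting error only. The 91 ERCC spike-in genes were dropped. Well barcodes recur over samples (376 distinct). Of cells with the barcode of a Crh-positive cell in another sample, 7.48% were Crh-positive, against 10.4% of all.

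Counts summed by sample and class, with at least 5 cells in each class, were tested with edgeR 4.0.16 in R 4.3.3. TMM scaling, filterByExpr, the quasi-likelihood test with a term for sample, and Benjamini-Hochberg adjustment over all genes tested were used, with a threshold of 0.05. For Crhbp that minimum left too few samples, and at least 3 cells were required. For Crhr1 and Crhr2 cells no such fit could be made. Fold changes are fitted within samples and can differ from ratios of mean CPM. Where a class had no counts of a gene, a floor of 3 counts over the class gave a bound. On simulated sums for the Crh comparison (11137 genes), 23% of genes changed 2-fold and 46% of those changed 4-fold were recovered, with 2 false calls. These sums were drawn from the kind of model that edgeR fits, without the shifted background of the real comparison. The false calls therefore do not measure those in the real comparison.

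Named genes are the 4 members, up to 8 a side with the largest fold that passed, averaged 10 CPM or more and moved alike in every sample, up to 3 passing genes a side of each list, and the 5 genes most like each member among those positive in at least 2% of cells. For Crhr2, counted in 3 samples, those 5 were not read. Other genes in single cells were picked once their values were known. The members and lists were chosen with earlier results of these data known. Ucn, Ucn2, Ucn3, Otp and Vip were not analysed here.

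Alternatives were DESeq2 1.42.0, median-of-ratios scaling, no filter, no sample block, other thresholds for positive cells, thinned counts, Mbp-positive cells left out and each sample left out. Chosen later, with the data known, were equal cell numbers (1 draw), sums by animal number and by date field, and fits without cells under 20000 counts, without Npy-positive cells or without cells positive for both Prkcd and Sst. Python 3.11.15, numpy 2.4.6, pandas 2.3.3 and scipy 1.17.1 were used.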

Additional observations from a re-analysis of the deposited data

Results flagged for a closer look

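In each of 40 sets of 9 sample values the highest and lowest were compared with the rest, and 6 stood apart; chance alone flags about 1 set in 20. The Crhbp level of sample 5, 87.6 CPM, stood above the other 8 samples and came from the single cell with 1838 counts. The share of Crhbp-positive cells among Sst-negative cells was highest in sample 1, at 7.58%. Sample 3 stood apart for Crhr2, with 2.15% positive cells among all, 2.33% among Isl1-negative, 2.44% among Nr2f2-negative and 2.63% among Sst-negative cells; all 4 values rest on the same 2 cells.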

How the results depend on the processing

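Against 126 higher and 163 lower genes in Crh-positive cells, DESeq2 gave 321 and 1017, leaving out Mbp-positive cells 34 and 11, any Crh count as positive 54 and 23, leaving out cells with both Prkcd and Sst 34 and 25, equal cell numbers 25 and 6, sums per animal number 53 and 13, sums per date field 33 and 10, and leaving out 1 sample 65 to 131 and 47 to 116. Against 3 higher and 406 lower genes in Crhbp-positive cells, DESeq2 gave 36 and 1830, leaving out Mbp-positive cells 1 and 5, any count 1 and 13, equal cell numbers 1 and 0 (79 and 70 at an unadjusted p under 0.05), and leaving out 1 sample 1 to 3 and 3 to 345. Median-of-ratios scaling and no replicate block each gave 5 higher genes, and lower genes were 14 without Npy-positive cells, 11 with no filter and 94 thinned. In Crh-positive cells the log2 change of Crhbp (-6.32) was -5.90 without Mbp-positive cells, -1.87 with any count, -6.29 without cells with both Prkcd and Sst, -5.31 per animal number, -4.67 per date field and -8.00 to -5.99 without 1 sample, and Crhbp was not tested at equal cell numbers. With no replicate block it was -3.66, Crhr1 in Crh-positive cells was 0.25, Crhbp was -2.05 in Prkcd against Sst cells and 2.12 by Sst, and Crhr1 was 0.10 by Sst, 0.047 by Nr2f2, -2.21 by Prkcd and 2.91 by Isl1. With classes set by any count, Crh was -4.63 by Crhbp, -2.35 in Prkcd against Sst cells, 3.27 by Sst and -4.30 by Nr2f2, none of which passed; Crhbp was -0.093 in Prkcd against Sst cells, 2.25 by Sst, 2.10 by Prkcd and 0.36 by Nr2f2; Crhr1 was -1.84 by Prkcd and 2.42 by Isl1. By Isl1, DESeq2 gave -4.58 for Crh, -4.11 for Crhbp and 2.55 for Crhr1. By Prkcd, Crh was -0.25 without Mbp-positive cells and -1.48 at 3 per 10000 (adjusted p = 0.0992), and Crhbp 1.95 without Mbp-positive cells. By Nr2f2, Crh was -5.76 per animal number and -5.71 per date field, and Crhbp 0.27 at equal cell numbers and 0.12 thinned. Leaving out 1 sample gave -3.06 to -2.23 for Crh and -0.53 to 1.5 for Crhbp in Prkcd against Sst cells, -0.10 to 0.50 for Crh and -0.83 to 0.40 for Crhbp by Prkcd, and 2.17 to 2.81 for Crhr1 by Isl1. At 3 per 10000, positive shares were 1.62% for Crhbp and 0% for Crhr1; at any count they were 18% for Crh, 6.35% for Crhbp and 6.08% for Crhr1. The log2 odds ratio of Crh with Crhbp was 1.5 at 3 per 10000, where no cell had both and the value is set by the 0.5 added, and that of Crh with Crhr1 was -0.23 at any count. The other 427 values for these results kept their direction and side of the threshold, or for shares and gene counts stayed near the reported value. Except where fewer cells or samples were used, the cause of a change was not tested. Thinned to 50000 counts per cell, the positive shares of Crhr1 and Crhr2 were 1.13% and 0.358%.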
